A study of Homo sapiens with 4 samples.

Results

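Very wide m6A peaks are the subject here: peaks whose blocks sum to 1000 bases or more in a list of regions enriched by an antibody against N6-methyladenosine (m6A). They were 1667 of 47074 peaks in all, 835 of 22448 in the list of shNC cells (3.72%, exact 95% interval 3.48 to 3.98) and 832 of 24626 in the list of shALKBH5 cells (3.38%, 3.16 to 3.61). They were selected on their measured width, so width, and the fold and p-value that come from the same peak calls, describe them and support nothing. The cells were RPMI-8226, an established human multiple myeloma line, transduced with lentivirus that carried either the hairpin named shNC or a short hairpin RNA against ALKBH5. Each condition gave 1 library from the immunoprecipitate and 1 from the input RNA, both made from poly(A) RNA, and 1 peak list was made per condition. With 4 libraries and no replicate, no p-value between conditions was computed, and every interval is an exact (Clopper-Pearson) 95% interval over peaks that covers counting error only. Read depth is unknown, since the lists hold no read counts.

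The methyl group of m6A is placed on nascent messenger RNA by a writer complex of METTL3 and METTL14 with partners such as RBM15 and VIRMA, is removed by the erasers ALKBH5 and FTO, and is bound by readers such as the YTHDF proteins. Writers prefer an adenosine inside GGAC-like motifs, and the mark is known to gather in long internal exons, around stop codons and in 3' untranslated regions. An m6A-seq peak reports where RNA fragments were enriched, not how many adenosines are methylated, and neighbouring sites closer than a fragment merge into 1 peak. ALKBH5 itself had no very wide peak. Its 3 peaks measured 358, 150 and 180 bases for shNC and 329, 150 and 179 bases for shALKBH5. No expression level is among the values used here, so the knockdown was not checked.

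Some wide peaks reach the very start of a transcript, where RefSeq (GRCh38.p14) gives the sequence that they cover. The first 50 bases after a RefSeq start lay wholly inside a wide shNC peak for 13 starts and inside a wide shALKBH5 peak for 21, 24 starts of 22 genes in all. The motif GGAC, searched on the transcript strand only, stood in 4 of these 24 windows (16.7%, interval 4.74 to 37.4), against 18.9% of all 35116 such windows. Its longer form GGACT, which contains GGAC, stood in 1 of the 24 windows (4.17%) and in 4.9% of all windows. These are the 5 motif sites found, with GGAC in capitals and up to 10 bases on each side.
FBXO5, chr6:152983539-152983562, minus strand: gggctaagctGGACtggggggagg
DNAAF2, chr14:49633949-49633972, minus strand: gtcgcgcggaGGACggaggccacg
DNAAF2, chr14:49633972-49633986, minus strand: gGGACccgcgaggag
CDK13, chr7:39950378-39950401, plus strand: gccgaggataGGACgacgagcgca
SENP5, chr3:196867948-196867969, plus strand: cgaacaggccGGACgcctcgtc

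The FBXO5 site lay inside a wide peak of both lists, the DNAAF2 sites inside a wide shNC peak, and the CDK13 and SENP5 sites inside wide shALKBH5 peaks. FBXO5 encodes an inhibitor of the anaphase-promoting complex, and CDK13 a kinase of RNA polymerase II. A match is a run of letters and not a measured site. For 3 long noncoding RNAs the 50 bases themselves are shown, because a wide peak covered them whole; none holds GGAC.
NORAD, chr20:36050911-36050960, minus strand, both lists: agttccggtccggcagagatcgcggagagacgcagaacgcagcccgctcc
NOP14-AS1, chr4:2935546-2935595, plus strand, both lists: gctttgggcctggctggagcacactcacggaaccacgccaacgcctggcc
MALAT1, chr11:65499045-65499094, plus strand, a start inside the gene, shNC list: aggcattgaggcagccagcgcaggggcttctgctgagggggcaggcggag

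The hairpin of 1 microRNA, MIR6501, was touched by a wide peak. It lies in SON, chr21:33550662-33550728, and the wide SON peak covered 49 of its 67 bases for shNC and all 67 for shALKBH5. Its mature arms are shown with the seed, bases 2 to 8, in capitals.
hsa-miR-6501-5p: aGUUGCCAgggcugccuuuggu
hsa-miR-6501-3p: cCAGAGCAgccugcgguaacagu

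The wide peaks held a larger part of the listed bases than of the listed peaks, which their selection on width fixes in advance. They summed to 1.12 Mb in the shNC list, 13.8% of the bases of all its peaks, and to 1.09 Mb in the shALKBH5 list, 12.8%. The median wide shNC peak was 1246 bases (quartiles 1108 and 1465, widest 3870) and the median wide shALKBH5 peak 1227 bases (1080 and 1433, widest 3540), while the median of all peaks was 270 and 269 bases. At 1500 bases or more there were 180 and 154 peaks, at 2000 or more 37 and 30, and at 3000 or more 4 and 2. The limit cut through filled width classes: the shNC list had 362 peaks from 900 to under 1000 bases, 171 from 1000 to under 1100 and 194 from 1100 to under 1200, and the shALKBH5 list had 311, 221 and 174. Just inside the limit stood HPDL, with the same 1007 bases in both lists. Just outside it, at 991 bases, stood STK11, a tumour suppressor kinase, and the chromatin remodeller CHD6, again in both lists.

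**Figure D1:**
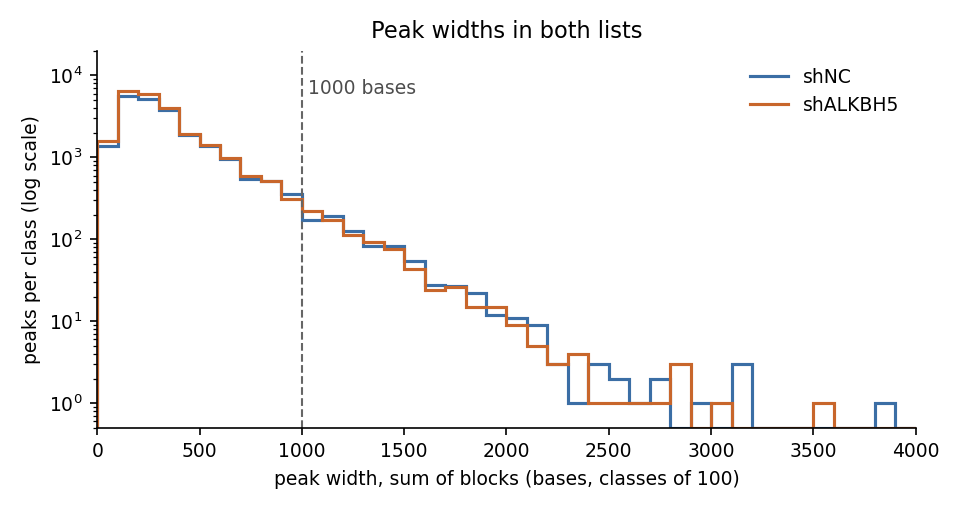
Number of peaks (y axis, log scale) by peak width in bases (x axis, classes of 100 bases) for the shNC list (blue) and the shALKBH5 list (orange), with the limit of 1000 bases dashed. The shNC curve falls from 362 peaks in the class below the limit to 171 above it and rises to 194 in the next, the shALKBH5 curve falls from 311 to 221 and 174, and the widest peaks are 3870 bases (shNC) and 3540 bases (shALKBH5).

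The authors' folds of immunoprecipitate over input and the log10 p of each peak are values of the peak calls that also set the width. Within the shNC list the wide peaks had a median fold of 13.9 (quartiles 9.65 and 19.7, range 3.02 to 133), against 6.54 over all peaks. Within the shALKBH5 list it was 13.7 (9.87 and 19.2, range 2.92 to 176), against 6.64. The median log10 p was -154 and -151, against -15.8 and -15.3 for all peaks of the same list. Still, 9 wide shNC peaks and 11 wide shALKBH5 peaks had a log10 p weaker than -20, the weakest being OTUB2 with -11.1 and NDUFB9 with -9.64. The strongest by p was EID1 in both lists, with -3170 over 1165 bases for shNC and -3140 over 1075 bases for shALKBH5. Among the next strongest were TEX19, SEC61A1, which encodes the channel of the endoplasmic reticulum translocon, and CXCR4, a chemokine receptor of bone marrow homing. In that order the log10 p was -2410, -2240 and -2140 in shNC cells, against -1970, -2460 and -2010 in shALKBH5 cells. These genes at the extremes of p were picked after their values were seen.

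Every wide peak of either list shared at least 1 base with a peak of the other list, called its partner here. That was 835 of 835 shNC peaks and 832 of 832 shALKBH5 peaks (100%, lower bound 99.6% in each). Of all shNC peaks 87.4% had a partner, and of all shALKBH5 peaks 80.2%. Of the remaining peaks with a p at least as strong as the median wide peak, 2119 of 2123 (99.8%) for shNC and 2263 of 2264 for shALKBH5 had a partner. Among narrower classes the share reached 100% from 600 bases on for shNC and from 800 bases on for shALKBH5. Wide peaks thus had a partner as often as peaks of 800 to 1000 bases.

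The partner that shared most bases was itself at least 1000 bases wide for 649 of the 835 shNC peaks (77.7%, 74.7 to 80.5) and for 654 of the 832 shALKBH5 peaks (78.6%, 75.7 to 81.3). Of these pairs, 517 of 649 (79.7%) and 514 of 654 (78.6%) had widths within 10% of each other. The borders were identical, block for block, for 114 wide shNC peaks (13.7%, 11.4 to 16.2) and 113 wide shALKBH5 peaks (13.6%), against 11.96% and 10.8% of the remaining peaks. The median wide peak had 97.3% of its bases under peaks of the other list for shNC and 97.8% for shALKBH5. At least 90% was covered for 685 shNC peaks (82.0%) and 660 shALKBH5 peaks (79.3%). In terms of genes, 798 genes had a wide shNC peak and 791 a wide shALKBH5 peak, which is 7.05% and 6.54% of the genes with any peak in that list. Of these, 631 had a wide peak in both lists (79.1% of the shNC genes, 79.8% of the shALKBH5 genes), 167 in the shNC list alone and 160 in the shALKBH5 list alone. Each gene wide in 1 list alone had a narrower peak in the other list.

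**Figure D2:**
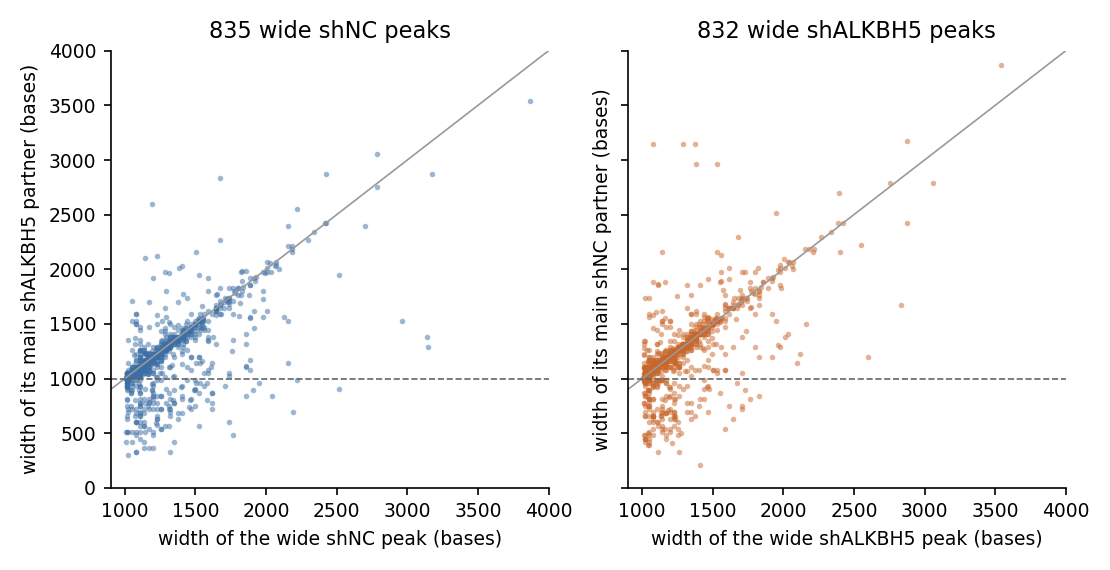
Width in bases of each wide peak (x axis) against the width in bases of the peak of the other list that shares most bases with it (y axis), for 835 wide shNC peaks (left) and 832 wide shALKBH5 peaks (right). The solid line marks equal widths and the dashed line 1000 bases; most points lie close to the solid line, and 186 (left) and 178 (right) fall under the dashed line.

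Where the main partner was under 1000 bases, the other list usually held more than 1 separate peak under the wide one, often with part of the stretch uncovered. Such a main partner was found for 186 shNC peaks and 178 shALKBH5 peaks, and had a median width of 805.5 and 780 bases. The other list covered a median of 87.6% and 85.9% of the bases of these wide peaks. At least 90% was covered for 72 (38.7%) and 50 (28.1%) of them. Of the main partners, 55 (29.6%) and 57 (32.0%) still measured 900 bases or more, and 15 (8.06%) and 19 (10.7%) measured under 500. Partners of the same gene that shared no base with each other numbered more than 1 for 135 of the 186 (72.6%, 65.6 to 78.9) and 119 of the 178 (66.9%, 59.4 to 73.7). Among wide peaks with a wide main partner this was 53 of 649 (8.17%) and 39 of 654 (5.96%). A wide main partner leaves less room for another one, so the split into these groups favours this difference, which therefore supports nothing. Choice by width in 1 list favours a narrower partner in the other, whichever list is chosen from. The counts of 186 and 178 thus show no direction between the conditions. Where the main partner was wide as well, it was narrower for 300 of 649 shNC peaks and wider for 200. For shALKBH5 peaks it was narrower for 195 of 654 and wider for 311. In both counts the shNC peak was more often the wider one. Whether this follows the knockdown, read depth or the peak calls was not tested. Counting any overlapping peak, whatever its gene, 320 wide shNC peaks (38.3%) and 290 wide shALKBH5 peaks (34.9%) had more than 1 partner, against 17.7% and 15.7% of all peaks. A wider peak has more bases to share, so the selection on width favours this difference. Where a partner had to share 50% of the bases of both peaks, more than 1 partner was left for 10.2% and 10.5% of the wide peaks.

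The following examples were picked after their values were seen, by the number of separate partners and by width. ZNF451, a SUMO ligase with zinc fingers, had 1 shNC peak of 2518 bases at chr6:57100726-57103243, and 4 shALKBH5 peaks of 301, 240, 900 and 660 bases under it. CENPF, a large kinetochore protein, had an shNC peak of 1769 bases over shALKBH5 peaks of 660, 151, 481 and 1230 bases. LRRC8B, a subunit of volume-regulated anion channels, had 1740 bases in the shNC list against 271, 301, 600 and 391. In TECPR1, an autophagy gene, 1078 shNC bases stood over 120, 180, 330 and 270. RBBP6, a ubiquitin ligase that also acts in 3' end processing, had 3143 shNC bases over 660, 630 and 1378. The reverse was seen as well. CLDN4, the tight junction protein claudin 4, had an shALKBH5 peak of 2601 bases over 6 shNC peaks in 3 separate places, and ZNF281 an shALKBH5 peak of 2836 bases over shNC peaks of 986 and 1672. IGSF10 had 1710 shALKBH5 bases over 331, 720 and 301, and PCNX1 had 1708 over 240, 420 and 750. At least 3 separate pieces were found under 26 wide shNC peaks and under 14 wide shALKBH5 peaks.

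Few wide peaks were covered to less than 50% by the other list: 1 for shNC and 4 for shALKBH5. The shNC peak was that of IFIT3, an interferon-induced gene, with 1021 bases of which 44.3% were covered by peaks of 301 and 151 bases. The shALKBH5 peaks were those of CD180, a Toll-like receptor homologue of B cells, covered to 34.3%, PCDHB2, a protocadherin listed there under 2 overlapping rows and covered to 38.2% and 38.4%, and ST20-AS1, covered to 49.7%.

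The wide peaks were mostly unspliced stretches. A single block made up 627 of 835 wide shNC peaks (75.1%, 72.0 to 78.0) and 599 of 832 wide shALKBH5 peaks (72.0%, 68.8 to 75.02), against 82.8% and 82.5% of the remaining peaks. A block of 1000 bases or more without a splice was present in 774 (92.7%) and 766 (92.1%) of them. The others reached the limit only by summing blocks. The most blocks were 7 in GOLIM4, a Golgi protein, over 1020 bases of the shNC list, and 5 each in BPTF, a chromatin remodelling subunit, and EIF5B, a translation initiation factor, in the shALKBH5 list. EIF5B had 6 blocks in the shNC list. The most intron bases spanned by a wide peak, summed over its introns, were 185018 in BCL2, in both lists.

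Position was taken from the RefSeq gene span for 794 wide shNC peaks and 792 wide shALKBH5 peaks. Start peaks are those whose 5' edge lay before the gene start or within the first 500 bp, and end peaks are others whose 3' edge fell within the last 1000 bp or beyond. At the start stood 73 wide shNC peaks (9.19%, 7.28 to 11.4) and 81 wide shALKBH5 peaks (10.2%, 8.21 to 12.6), against 11.5% and 14.6% of the remaining peaks. At the end stood 207 (26.1%, 23.05 to 29.3) and 195 (24.6%, 21.7 to 27.8), against 22.9% and 22.0%. The interior held 514 (64.7%) and 516 (65.2%), against 65.6% and 63.4%. The end share of the remaining peaks lay just below the interval for shNC and inside it for shALKBH5. Wide start peaks lay in genes with a median length of 7038 bp (shNC) and 9303 bp (shALKBH5). For wide interior peaks the median was 44831.5 and 44293 bp. A wider peak reaches the start window more easily, above all in a short gene, so width favours a higher start share. What gene length contributes was not tested. The start share was not even over width. It was 7.65% and 7.55% at 1000 to 1249 bases and 18.9% and 26.7% at 2000 bases and more, where it rests on 7 and 8 peaks. RANBP6, ZNF281, RBM15, NUFIP2, PURB and FEM1C are among these; RANBP6 had 3175 bases in 1 block in the shNC list, beginning 269 bp inside a gene of 4600 bp. A wide peak covered the whole RefSeq gene of SFN (14-3-3 sigma), 1320 bases over a gene of 1308 bp with the same borders in both lists. An shALKBH5 peak of 1831 bases in CLDN4 likewise ran from before the start to past the end, and the CLDN4 peak of 2601 bases reached to 6 bp before it. WDR53 had a peak of 1647 bases in 4 blocks that spanned its gene from 30 bp inside the start to the last base, with the same borders in both lists.

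**Figure D3:**
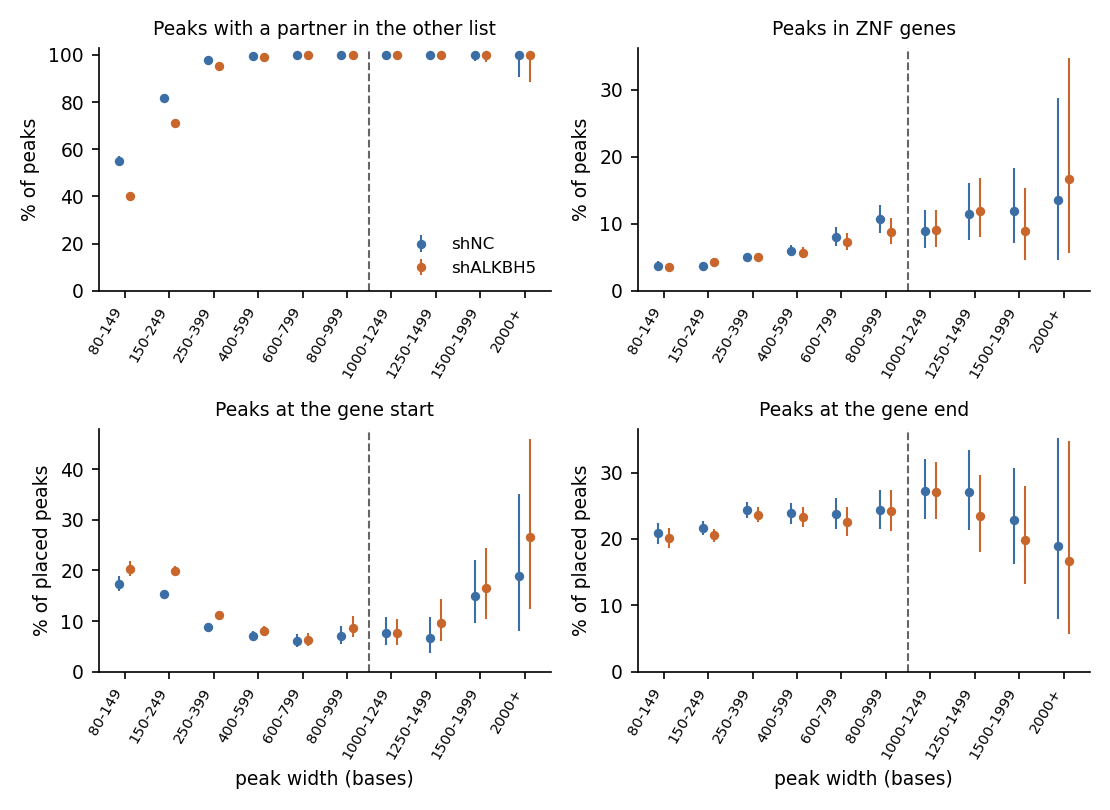
Percent of peaks in each width class (x axis, bases) that had a partner in the other list, lay in ZNF genes, lay at the gene start and lay at the gene end (y axes, percent; the lower panels over placed peaks), for shNC (blue) and shALKBH5 (orange). Bars are exact 95% intervals over peaks and the dashed line marks 1000 bases. ZNF genes hold 3.74% of the narrowest shNC class, 10.6% of that from 800 to under 1000 bases and 13.5% (5 of 37) of the widest. The start share is lowest at middle widths.

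Genes named ZNF held more of the wide peaks than of all peaks, but a similar share of the peaks just under the limit. These genes encode zinc finger proteins, most of them transcription factors whose fingers are known to be coded in 1 long last exon. The wide shNC peaks included 86 in 77 ZNF genes (10.3%, 8.32 to 12.6) and the wide shALKBH5 peaks 84 in 79 ZNF genes (10.1%, 8.13 to 12.3), where ZNF genes held 5.17% of all shNC peaks and 5.05% of all shALKBH5 peaks. From 800 to under 1000 bases the ZNF share was 10.6% (93 of 874, shNC) and 8.77% (72 of 821, shALKBH5). Both values lie inside the intervals of the wide peaks. From 600 to under 800 bases it was 8.08% and 7.25%. The ZNF share thus rose with width below the limit already and does not mark peaks of 1000 bases or more. With width measured introns included, no excess over all peaks was left. The ZNF share of the peaks of 1000 bases or more was then 4.72% (4.04 to 5.48) and 4.51% (3.86 to 5.22), intervals that include the shares of all peaks. Only 18.1% and 16.1% of the peaks so chosen had 1 block, while 91.2% and 90.7% of the remaining ZNF peaks had 1 block. Of the ZNF genes with a peak, 18.7% (77 of 411, 15.1 to 22.8) had a wide one for shNC and 18.6% (79 of 424, 15.04 to 22.7) for shALKBH5, against 6.61% and 6.10% of the other genes. In remaining peaks with a p at least as strong as the median wide peak the ZNF share was 1.98% and 2.03%. Wide peaks in 59 ZNF genes were present in both lists, 18 in the shNC list alone and 20 in the shALKBH5 list alone. The wide ZNF peaks had a median log10 p of -95.2 and -95.5, weaker than that of all wide peaks, and a median fold of 16.4 and 15.1. They lay in the gene interior in 62 of 84 placed shNC peaks (73.8%) and 66 of 82 shALKBH5 peaks (80.5%), and at the start in 2 of each. The remaining ZNF peaks were placed much alike, with 77.9% and 75.1% in the interior and 2.78% and 4.36% at the start.

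Among the ZNF members, ZNF623 had the widest peak common to both lists, listed under 2 overlapping rows each, 2418 and 2423 bases for shNC and 2388 and 2423 for shALKBH5. ZNF189 had 2031 bases for shNC and 2061 for shALKBH5, and ZNF687 had 1798 and 1828. ZNF292, whose protein is coded mostly by 1 long exon, had 2 wide shNC peaks, of 2129 and 1140 bases, and 1 wide shALKBH5 peak of 1560. ZNF799 had a fold of 67.1 over 1526 shNC bases, above shALKBH5 peaks of 539 and 569. Reads of near-identical ZNF copies may be split between genes by the authors' mapping, and ZNF320 and ZNF468 carried nearly the same shALKBH5 peak, 1591 and 1587 bases, under 2 names. Other families, taken by the start of the gene symbol, were chosen after the lists were seen, and their shares stand beside 7.05% (shNC) and 6.54% (shALKBH5) of all genes with a peak. Of the ZBTB genes, which pair zinc fingers with a BTB domain, 12 of 38 (31.6%, 17.5 to 48.7) had a wide peak for shNC and 11 of 37 (29.7%, 15.9 to 46.98) for shALKBH5. The ZSCAN genes, zinc finger genes with a SCAN domain, had 1 of 16 (6.25%) and 1 of 15 (6.67%), both ZSCAN30. The ZFP genes had 2 of 15 (13.3%, 1.66 to 40.5) and 4 of 15 (26.7%, 7.79 to 55.1), and the shNC interval includes the share of all genes. The SLC genes, which encode solute carriers, had 8 of 175 (4.57%, 1.99 to 8.81) and 8 of 176 (4.55%, 1.98 to 8.76), intervals that include the share of all genes.

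A few genes carried several wide peaks, 36 for shNC and 35 for shALKBH5. MKI67, the proliferation marker Ki-67, had 3 of its 10 shNC peaks and 5 of its 9 shALKBH5 peaks above 1000 bases. The shNC peaks measured 2070, 1381 and 1740 bases with folds of 13.3, 8.17 and 9.53. The shALKBH5 peaks measured 2040, 2010, 1141, 1020 and 1260 bases with folds of 13.1, 5.33, 4.99, 6.84 and 6.27. Of these wide peaks, only the spliced one nearest the gene end had nearly the same borders in both lists. It lay at chr10:128097709-128102657 for shNC and started 30 bases later for shALKBH5. The shNC peak of 1740 bases stood over shALKBH5 peaks of 1141 and 1020, while the shALKBH5 peak of 2010 bases stood over shNC peaks of 661 and 1381. Splits of both kinds thus occurred inside 1 gene.

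PLEC, which encodes the giant cytoskeletal linker plectin, had 2 wide shNC peaks and 3 wide shALKBH5 peaks. The shNC peak of 3147 bases at chr8:143922776-143926821 stood over shALKBH5 peaks of 511, 1080 and 1289 bases, whose outer borders were the same. The other PLEC peak measured 1259 bases in both lists, shifted by 30 bases. Another 20 genes had 4 wide peaks summed over both lists. BCL2, the apoptosis inhibitor, was one of them, with 2 in each list. Its peak of 1977 bases in 3 blocks, chr18:63126878-63313872, had the same borders whichever list was read, with folds of 30.9 and 27.4, and its peak near the start measured 2186 and 2156 bases with folds of 26.3 and 34.1.

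**Figure D4:**
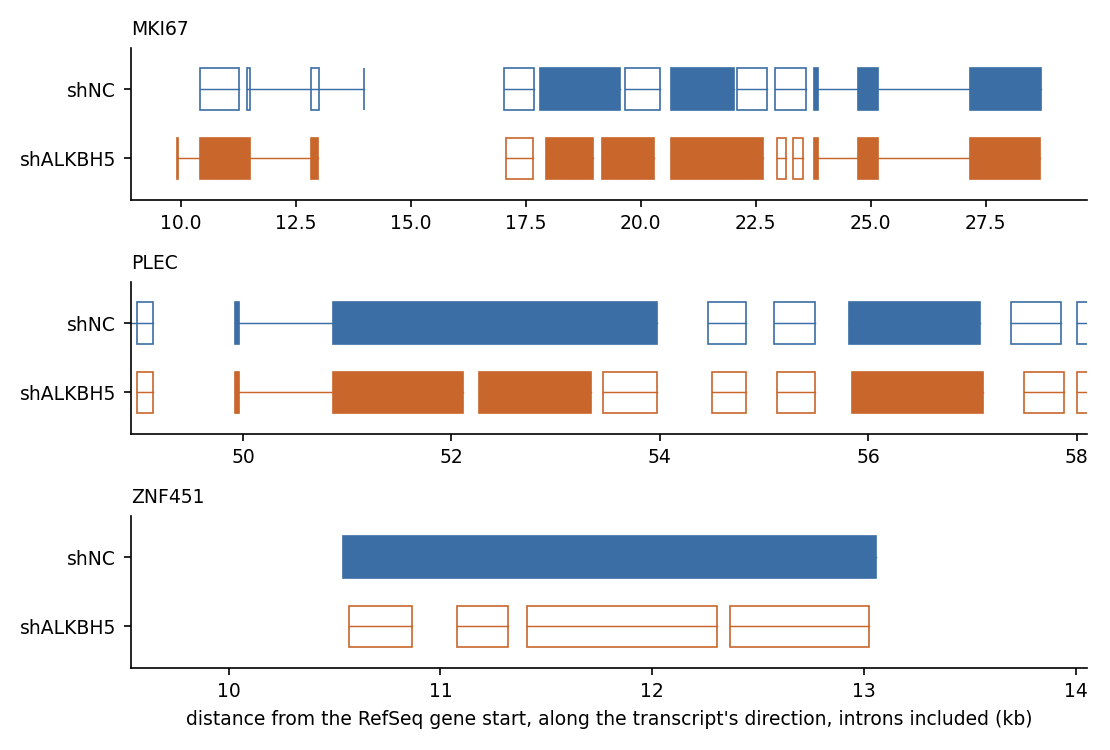
Peaks of MKI67, PLEC and ZNF451 (rows) along the distance from the RefSeq gene start in kb, introns included (x axis), for shNC (upper track) and shALKBH5 (lower track); boxes are blocks, thin lines join the blocks of 1 peak, filled boxes are peaks of 1000 bases or more and open boxes narrower peaks. A stretch in 1 wide peak of one list appears as several peaks of the other, as in ZNF451 with 2518 shNC bases over shALKBH5 peaks of 301, 240, 900 and 660.

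The widest peak of both lists lay in SMCR8, a partner of C9orf72 in autophagy. It had 3870 bases in 2 blocks at chr17:18316270-18324606 for shNC and 3540 for shALKBH5, with the same 3' border, and another shALKBH5 peak of 241 bases lay under the shNC one. Next came RANBP6, an importin-like gene, with 3175 and 2876 bases, ZC3H4, a zinc finger gene of transcription termination, with 2787 and 3057, and THAP12 with 2786 and 2756. These 4 genes were among the 10 widest of both lists. The other members of the 10 widest shNC peaks were PLEC, RBBP6, C15orf39 (2966 bases over shALKBH5 peaks of 1379 and 1528), NUFIP2 (2698), ZNF451 and PURB (2515), and those of the 10 widest shALKBH5 peaks were RBM15, ZNF281, CLDN4, DIDO1 (2549), ZNF623 and FEM1C (2399).

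The highest folds ranked other genes first. In the shNC list they were ADGRA3, an adhesion receptor, with 133 over 1348 bases, the m6A reader gene YTHDF3 with 127 over 1676 bases, LMTK3 with 123 over 1200 bases and PURA, a nucleic acid binding protein, with 87.4 over 1288 bases. In the shALKBH5 list they were KCTD11 with 176 over 1107 bases, listed in 2 rows with nearly the same borders, HEMK1 with 166 over 1290 bases, TNKS1BP1 with 160 over 1975 bases and SCAF11 with 118 over 1050 bases. How folds were normalised is not given in the sources, so values side by side are no comparison. The shALKBH5 peaks at the shNC leaders had folds of 42.5 in ADGRA3, 20.4 in YTHDF3, 55.2 in LMTK3 and 47.7 in PURA. The shNC peaks at the shALKBH5 leaders had folds of 24.5 in KCTD11, 43.7 in HEMK1, 34.4 in TNKS1BP1 and 25.6 in SCAF11. Each leader was chosen for being high in its own list, which fixes the direction of these pairs.

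Of the genes known for a very long exon or coding sequence, 11 of 28 with a shNC peak had a wide one (39.3%) and 10 of 29 with a shALKBH5 peak (34.5%), where all genes with a peak gave 7.05% and 6.54%. Among them, ASXL1, ASXL2, BOD1L1, CENPF, MKI67, PLEC, SON and ZNF292 had a wide peak in both lists, AHNAK and APC in the shNC list alone and KMT2A in the shALKBH5 list alone. SON, a splicing cofactor, had 1228 shNC bases and 1258 shALKBH5 bases ending at the same position, and another 1258 shALKBH5 bases over shNC peaks of 300, 240 and 540. APC, the Wnt pathway tumour suppressor, had 1020 shNC bases over an shALKBH5 peak of 900. AHNAK, a giant scaffold protein, had 1201 shNC bases over shALKBH5 peaks of 811 and 271. The lists of genes were chosen with results of these data known.

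Among long noncoding RNAs 5 of 11 had a wide peak in each list (45.5%), beside 7.05% and 6.54% of all genes. They were the same 5: FTX, JPX, MALAT1, NORAD and TUG1. NORAD, which binds Pumilio proteins, had 1141 bases from its first base on with the same borders in both lists. MALAT1, an abundant nuclear RNA, had 1886 shNC bases over shALKBH5 peaks of 180, 569 and 1078. TUG1 had 1079 bases for shNC and 1049 for shALKBH5 at the gene end. JPX, an activator of XIST in X inactivation, and FTX, from the same locus, overlapped: the JPX peak of 1531 bases in both lists shared bases with an FTX peak on the other strand, and the sources used here do not say whether reads keep their strand, so a peak cannot be assigned to either of 2 overlapping genes. Over all placed peaks, RNAs that RefSeq types as lncRNA made up 24 wide shNC peaks (3.02%) and 31 wide shALKBH5 peaks (3.91%), against 4.32% and 4.44% of the remaining peaks. That share was thus no higher among wide peaks.

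The m6A machinery itself carried wide peaks in 7 of 22 genes (31.8%, shNC) and 5 of 22 (22.7%, shALKBH5), beside 7.05% and 6.54% of all genes. The readers YTHDF1, YTHDF2 and YTHDF3 and the writer subunits RBM15 and RBM15B had them in both lists. YTHDF2 had 1766 shNC bases and 1706 shALKBH5 bases at the gene end, YTHDF1 had 1191 and 1190, and YTHDF3 had 1676 with identical borders. RBM15 had 2425 shNC bases inside an shALKBH5 stretch of 2874, and RBM15B had 1467 in both. In METTL14, the partner of the catalytic METTL3, 1319 shNC bases stood over shALKBH5 peaks of 720 and 480. In CBLL1, a ubiquitin ligase of the writer complex, 1139 shNC bases stood over shALKBH5 peaks of 211 and 719. In both genes most of the stretch was thus listed in both conditions, as 1 peak for shNC and as 2 for shALKBH5.

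Of 38 chromatin regulators, all with peaks in both lists, 11 had a wide one in each (28.9%), beside 7.05% and 6.54% of all genes. In both lists they were ARID1A, ARID1B and ARID2 of the SWI/SNF remodellers, the methyltransferases ASH1L, NSD1 and SETD1B, the acetyltransferases CREBBP and EP300, and the 5-methylcytosine oxidase TET3. ARID1B had 2010 bases with the same borders in both lists beside a peak of 1411 (shNC) and 1381 (shALKBH5), and CREBBP had 1319 bases with the same borders. ARID1A had 1920 and 1890 bases far from the start, and a peak at the start of 1501 and 1141 bases, the latter beginning upstream of the RefSeq start. KDM3B and KMT2C were wide in the shNC list alone and KMT2A and KMT2B in the shALKBH5 list alone. KMT2C had 1500 shNC bases over shALKBH5 peaks of 541 and 901, and KMT2A 1080 shALKBH5 bases over shNC peaks of 211 and 660.

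In the list of plasma cell and myeloma genes, 5 of 23 (21.7%) and 4 of 24 (16.7%) had a wide peak. All genes with a peak gave 7.05% and 6.54%. The shALKBH5 share rests on 4 genes, too few to set it apart from 6.54%. TENT5C, a poly(A) polymerase gene often mutated in myeloma, had 1439 and 1409 bases, IKZF3, the transcription factor Aiolos, 1469 and 1409, and BCL2 is given above. MAF, a transcription factor activated in some myelomas, had 2 wide shNC peaks, 1857 bases at the start and 1229 next to it, and 1 wide shALKBH5 peak of 1318 at the start. PRDM1, the plasma cell regulator Blimp-1, had 1046 shNC bases over shALKBH5 peaks of 180 and 747. PRDM1 was also the single one of the cell type markers with a wide peak. Of 10 plasma cell markers 7 had a peak of any width in each list, and of 10 T and NK cell markers 1 and 2, of 8 myeloid markers 2 and 2 and of 7 stromal markers 2 and 1. A peak shows that the RNA was present, and in a pool of cells fewer cells with an RNA and less of it per cell cannot be told apart.

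In tumour necrosis factor receptor and NF-kappa-B signalling 4 of 30 genes (13.3%) had a wide shNC peak and 2 of 31 (6.45%) a wide shALKBH5 peak. The latter is close to the 6.54% of all genes, and the former rests on 4 genes, too few to set it apart from 7.05%. RIPK1, the kinase at TNF receptor 1, had 1550 shNC bases over shALKBH5 peaks of 299 and 1163, and TAB2, an adaptor of the kinase TAK1, had 1496 and 1406 bases. TAB1 had 1376 shNC bases over shALKBH5 peaks of 599 and 629, and TAB3 had 1200 over 301 and 840. In DNA repair and mitosis 7 of 26 (26.9%) and 7 of 24 (29.2%) had one, beside 7.05% and 6.54% of all genes. CDCA2, CENPF, CEP152, MKI67 and REV3L did so in both lists, KIF20B and PALB2 in the shNC list alone, and FANCA and SLX4 in the shALKBH5 list alone. REV3L, the catalytic subunit of the translesion polymerase zeta, had 1438 bases with the same borders in both. SLX4, a nuclease scaffold, had 1018 shALKBH5 bases of which 53.1% were covered by shNC peaks of 420 and 121. Of the housekeeping genes 0 of 11 with a shNC peak and 0 of 15 with a shALKBH5 peak had a wide one, beside 7.05% and 6.54% of all genes, and lists this short do not set 0 apart from those shares.

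**Figure D5:**
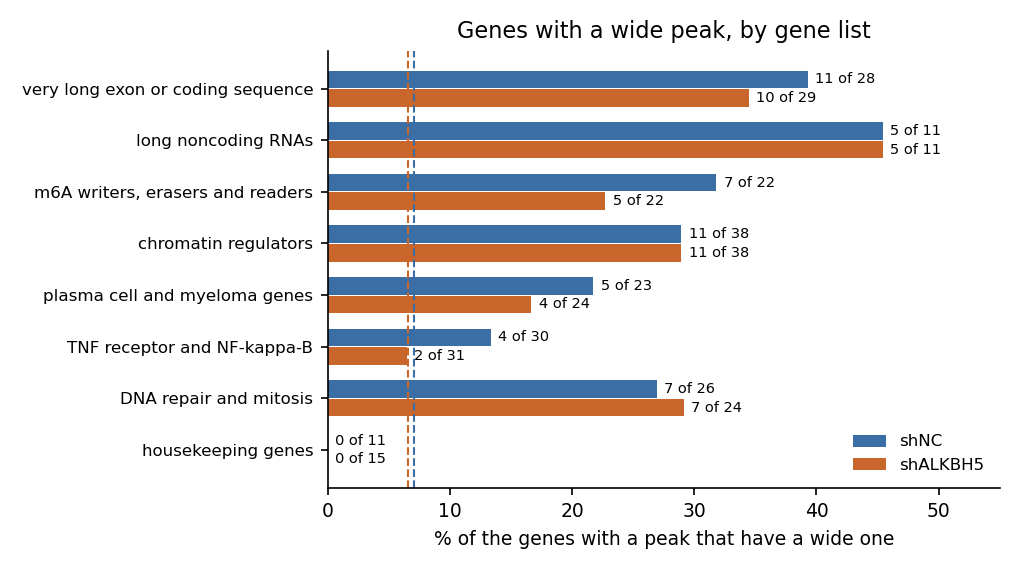
Percent of the genes with a peak that have a wide one (x axis) in each of the 8 gene lists (y axis), for shNC (blue) and shALKBH5 (orange), with the counts beside the bars. Dashed lines mark 7.05% (shNC) and 6.54% (shALKBH5) of all genes with a peak. The 0 of 11 and 0 of 15 housekeeping genes are too few to set apart from these lines. For TNF receptor and NF-kappa-B signalling, 2 of 31 shALKBH5 genes lie at the background and 4 of 30 shNC genes are too few to set apart from it. The 4 of 24 plasma cell and myeloma genes for shALKBH5 are also too few.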

How the data were processed

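Poly(A) RNA of RPMI-8226 cells was sequenced before (input) and after immunoprecipitation with an antibody against m6A, 1 library of each per condition, per the labels' protocols. The build hg38 and the tools HOMER 4.9.1, BWA 0.7.12 and fastp 0.19.11 are named in the submitters' processing notes without their roles. No source used here gives the peak caller or its settings. Per the file headers, the authors deposited for each peak its blocks, strand, gene, p-value, log10 p (read as a score with no fixed range) and a fold, the ratio of immunoprecipitate over input; none is a read count, so depth is unknown. The log10 p held a spreadsheet error in 2 shNC and 1 shALKBH5 cells, none in a wide peak.

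Width is the sum of a peak's blocks. Partners share at least 1 base between blocks, strand ignored. Starts are given from 1. Genes were matched to RefSeq spans (GRCh38.p14) by symbol, or by an older symbol that was unique on the chromosome. Tools were SciPy 1.17.1, numpy 2.4.6 and pandas 2.3.3 under Python 3.11.15, and matplotlib 3.10.9 for plots. On 2000 simulated peaks, 100% of partner counts and positions were right. There were 13 alternatives, 1 of them (partners of the same gene) chosen after seeing the data. The members, gene lists and rules were chosen with earlier results of these data known. Genes were named by rule: in each list the 10 widest peaks, the 10 highest folds and the 10 with the most partners; the 5 genes with the most wide peaks; members of the 8 gene lists; and the 3 peaks on each side of the limit. These rankings skip immunoglobulin genes, pseudogenes and unnamed loci, and not every gene so named is printed; 1 gene is not reported here. Examples of blocks, coverage, pieces, positions and ZNF or other family members were chosen after their values were seen. A genome and protein sequences were not used here, so motifs inside peaks were not searched.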

Additional observations from a re-analysis of the deposited data

How the results depend on the processing

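Values are given for shNC and then shALKBH5. With a limit of 800 bases, the share with more than 1 partner was 35.0% and 31.4%, the share with a wide main partner 82.6% for shALKBH5, and the median fold 13.2 and 13.1. With 1500 bases, more than 1 partner was found for 47.8% and 39.0%, a wide main partner for 65% of shNC peaks, 1 block for 71.7% and 64.3%, the gene end for 22.0% and 19.2%, the gene start for 15.8% and 18.5%, and the median fold was 15.2 and 15.1. Width measured with introns admits 3472 and 3729 peaks, most of them spliced: 94.2% and 89.9% had a partner, 70.4% of shALKBH5 peaks a wide main partner, 26.3% and 23.4% more than 1 partner, 18.1% and 16.1% 1 block, 15.1% and 13.8% lay at the end, 14.2% and 18.9% at the start, 4.72% and 4.51% in ZNF genes, and the median fold was 8.70 and 8.73. The ZNF share thus rests on width without introns. Overlapping wide peaks counted once moved more than 1 partner to 31.5% for shALKBH5. A reciprocal overlap of 50% left a partner for 94.5% and 94.1% and more than 1 for 10.2% and 10.5%, partners on the same strand left more than 1 for 31.4% and 27.4%, and partners of the same gene left 26.2% and 22.4%. End windows of 500 and 2000 bp gave 17.1% and 16.9%, and 41.2% and 39.5%; start windows of 200 and 1000 bp gave 5.67% and 7.70%, and 12.6% and 14.1%. The other 64 of 112 values stayed within the interval of the reported value, among them every value without pseudogenes, unnamed loci and immunoglobulin genes and with lists of equal length. No paired analysis was possible because each condition has 1 list and no test was made. Limits: depth is unknown, intervals take peaks as independent although neighbours and double rows are not, and 73 wide shNC and 80 wide shALKBH5 peaks shared a base with another wide peak of their list.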
